A study of Rattus norvegicus with 9 samples.

Results

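The potassium channel genes of the rat kidney were compared between 3 strains. A gene was included where an array probe carried a RefSeq identifier that maps to a rat symbol from Kcna to Kcnv, that is, to a pore-forming or auxiliary subunit of a potassium channel. This gave 83 genes with 89 probes, of 13903 genes with a probe on the array. Of 97 reference genes with such a symbol, 14 matched no probe and were not analysed here. The samples were kidneys of 9 male rats aged 53 days, with 3 animals and 3 one-colour arrays per strain. The strains were the Spontaneously hypertensive rat (SHR), Dahl Salt Sensitive rats (Dahl S) and Dahl Salt Resistant rats (Dahl R). All 9 rats shared a birth date, were weaned at 30 days and then ate a diet with 0.3% salt, so every strain was on low salt. As background, a salt-rich diet raises blood pressure in Dahl S and not in Dahl R, whereas in SHR the pressure rises on ordinary chow. Blood pressure was not analysed here, and the strains differ in their whole genomes.

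Potassium channels let potassium leave cells along its gradient and so hold the membrane potential negative. In kidney tubules, inward rectifier and 2-pore domain channels drive transport on the side facing the blood, recycle potassium for the sodium pump and the thick ascending limb cotransporter, and, together with large-conductance calcium-activated channels, secrete potassium into the urine. Voltage-gated channels are best known in nerve, heart and vessel muscle, where auxiliary subunits set how many channels reach the membrane and how fast they close.

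The Kv4 channels gave the largest strain difference in the family, and the promoter sequences of their genes are shown first so that the 3 genes discussed below can be read against each other. Kv4 channels carry a transient outward current; Kcnd2 and Kcnd3 encode pore subunits, and Kcnip2 encodes a calcium-binding auxiliary subunit that brings them to the membrane. The sequences are the 250 bases before the transcription start in the RefSeq table for GRCr8, with 1 start per gene, 5′ to 3′ along the gene's strand. Capitals mark an Sp1 box, GGGCGG or its reverse CCGCCC. The Kcnip2 stretch lies at chr1:254613899-254614148 on the minus strand, the Kcnd3 stretch at chr2:195626066-195626315 on the plus strand, and the Kcnd2 stretch at chr4:50742235-50742484 on the plus strand.
Kcnip2: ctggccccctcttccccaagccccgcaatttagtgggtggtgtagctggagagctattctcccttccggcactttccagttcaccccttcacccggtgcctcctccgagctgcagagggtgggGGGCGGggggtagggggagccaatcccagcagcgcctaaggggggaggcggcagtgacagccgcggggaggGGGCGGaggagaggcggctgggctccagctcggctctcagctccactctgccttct
Kcnd3: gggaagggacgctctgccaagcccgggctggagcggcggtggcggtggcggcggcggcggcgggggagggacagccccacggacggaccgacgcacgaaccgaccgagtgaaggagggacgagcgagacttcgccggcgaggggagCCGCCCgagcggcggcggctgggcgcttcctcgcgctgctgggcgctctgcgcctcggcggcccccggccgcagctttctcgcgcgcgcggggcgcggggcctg
Kcnd2: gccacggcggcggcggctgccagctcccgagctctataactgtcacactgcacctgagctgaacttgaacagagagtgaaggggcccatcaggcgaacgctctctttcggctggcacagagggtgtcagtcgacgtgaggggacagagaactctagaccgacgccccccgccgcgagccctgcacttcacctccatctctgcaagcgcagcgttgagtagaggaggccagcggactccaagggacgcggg
The GC content was 68% for Kcnip2, 79.6% for Kcnd3 and 64% for Kcnd2, and these stretches held 2, 1 and 0 Sp1 boxes. The table held a promoter for 57 of the 83 genes. An Sp1 box on either strand stood in 29 of these 57 (50.9%), against 30.5% of all 33469 promoters in the table. A TATA box (TATAAA) stood in 2 of the 57 (3.51%, against 12.9%), an E-box (CACGTG) in 2 (3.51%, against 5.59%), and a steroid receptor half-site (AGAACA) in 8 (14%, against 17.5%). A match is a run of letters and not a measured binding site. The strain sequences themselves were not analysed here.

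About 6 in 10 of the potassium channel genes gave enough signal in kidney to be compared. A gene was tested where at least 0.5 of a probe's spots were well above background, by the scanner software's own call, on at least 3 arrays. By this rule 49 of the 83 genes were tested (59.0%), against 78.1% of all genes on the array. The tested genes were 16 of 34 voltage-gated pore subunits, 11 of 15 inward rectifiers, 7 of 12 2-pore domain channels, 5 of 7 ion-activated channels and 10 of 15 auxiliary subunits. Of the 49, 19 were well above background on all 9 arrays and 22 on 8 arrays, the exception being SHR replicate 3 each time. The remaining 8 (Kcna4, Kcnab3, Kcnd2, Kcnh4, Kcnh7, Kcnj15, Kcnj3 and Kcnn1) were well above background on 3 to 7 arrays.

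**Figure D1:**
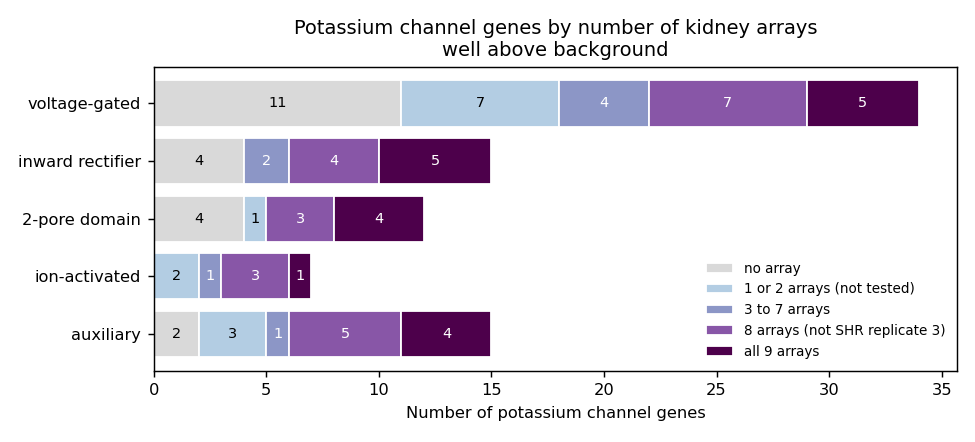
Number of potassium channel genes (x axis) in each channel class (y axis), split by the number of arrays on which the gene's probe was well above background. Of 34 voltage-gated genes, 11 were seen on no array and 7 on 1 or 2, whereas 5 of 15 inward rectifiers and 4 of 12 2-pore domain channels were seen on all 9.

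A further 21 genes were well above background on no array. These were Kcna1, Kcna2, Kcna6, Kcna7, Kcnd1, Kcng4, Kcnh5, Kcnh6, Kcnh8, Kcns2 and Kcnv1 among voltage-gated subunits; Kcnj2, Kcnj6, Kcnj9 and Kcnj10 among inward rectifiers; Kcnk4, Kcnk10, Kcnk16 and Kcnk18 among 2-pore domain channels; and the auxiliary Kcne4 and Kcnmb3. Kcna1, the channel that supports magnesium uptake in the distal convoluted tubule, and Kcnj10, the basolateral partner of Kcnj16 in the same segment, are known kidney channels, so a dim probe here is no statement on whether the gene is expressed. On 1 or 2 arrays were Kcna3, Kcnb2, Kcnc2, Kcne3, Kcne5, Kcng1, Kcng3, Kcnip3, Kcnk15, Kcnn3, Kcns1, Kcnt2 and Kcnv2. Of the 34 untested genes, 0 passed in any comparison when the filter was removed.

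Library quality bears on the results below. On 8 arrays, 60.1% to 70.3% of probes were well above background and the median local background was 43 to 45 units. SHR replicate 3 stood apart, with 43.1% of probes, a local background of 88 and r of 0.916 to 0.934 with the other arrays. Slides were inferred from the file headers, arrays with the same scan date being taken as 1 slide. On this reading slide 1 held the 3 Dahl S arrays and Dahl R replicate 1. Slide 2 held Dahl R replicates 2 and 3 and SHR replicates 1 and 2, and slide 3 held SHR replicate 3. Dahl S and SHR thus share no slide, so strain and slide cannot be told apart in their direct comparison. With slide as a block, SHR minus Dahl R is the slide 2 difference, and SHR replicate 3 does not enter it. Dahl S minus SHR with that block is indirect, joined through Dahl R, which has only replicate 1 on slide 1. All 6 of 6 proximal tubule markers were well above background in every strain, as were all 4 podocyte markers. Below, a log2 level is the log2 signal minus the log2 of the array's 75th percentile, so that 0 is that percentile. Levels of different genes come from different probes and are not set against each other. Because these are pieces of whole organ, fewer cells of a type and less RNA per cell cannot be told apart.

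SHR kidneys differed from both Dahl strains in a sizeable minority of potassium channel genes, most of them higher in SHR. Kcnip2, Kcnd3, Kcnab1, Kcnt1, Kcnj4, Kcnj1, Kcnj16, Kcnq1 and Kcnh1 were higher in SHR than in each Dahl strain, and Kcnj12 was lower than in each. Against Dahl S, 17 of 49 genes passed (34.7%), 12 higher in SHR and 5 higher in Dahl S. Over all 10861 tested genes the share was 15.8%, with 8.41% higher in SHR and 7.35% higher in Dahl S. Against Dahl R, 14 of 49 passed (28.6%), 11 higher and 3 lower in SHR, where all genes gave 13.6%, 7.84% higher and 5.8% lower. A gene passed where limma gave it an adjusted p under 0.05, the adjustment (Benjamini-Hochberg) taking in every tested probe. Both comparisons use the same SHR arrays. The strains' values did not overlap in 25 of 49 genes between Dahl S and SHR (51%, against 39.3% of all genes) and in 21 between SHR and Dahl R (42.9%, against 40.9%), the latter close to the background.

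The median log2 difference of SHR minus Dahl R was 0.36 over the 49 genes and 0.09 over all genes, and that of Dahl S minus SHR was -0.24 and -0.06. These medians were not stable. That of SHR minus Dahl R was 0.11 without SHR replicate 3 (all genes 0.05), 0.08 with slide as a block and 0.13 with array weights. That of Dahl S minus SHR turned to 0.22 under normexp (all genes 0.04), was -0.11 with slide as a block and with the authors' deposited values, and was -0.36 and -0.15 without Dahl S replicates 1 and 2. By class, SHR minus Dahl R had a median of 0.39 in voltage-gated genes (4 higher, 1 lower, 11 not passing), 0.42 in 2-pore domain channels (1, 0 and 6) and 0.32 in auxiliary subunits (2, 0 and 8). It was 0.16 in ion-activated channels (1, 1 and 3) and -0.23 in inward rectifiers (3, 1 and 7). For Dahl S minus SHR, the medians were -0.35 in voltage-gated genes (1 higher in Dahl S, 4 lower, 11 not passing), -0.35 in auxiliary subunits (1, 4 and 5) and -0.39 in ion-activated channels (0, 1 and 4). They were 0.01 in inward rectifiers (2, 3 and 6) and -0.08 in 2-pore domain channels (1, 0 and 6). Without SHR replicate 3 the class medians of SHR minus Dahl R were -0.06 in voltage-gated genes, 0.36 in 2-pore domain channels, 0.14 in auxiliary subunits, -0.05 in ion-activated channels and -0.06 in inward rectifiers. Those of Dahl S minus SHR were then -0.22, -0.19, -0.31, 0.06 and -0.42 in the same order, so the sign of a class median could turn with that array. No test compared the classes.

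These counts moved with the treatment of background and of SHR replicate 3. Without SHR replicate 3, 26 genes passed between Dahl S and SHR (53.1%, against 25.7% of all genes), 10 higher in Dahl S and 16 lower (12.6% and 13.1% of all genes), and 20 between SHR and Dahl R (40.8%, against 22.8%), 15 higher and 5 lower in SHR (12.7% and 10.1% of all genes). All 17 and all 14 genes were among them. The genes added against Dahl S included Kcnd2, Kcnj15, Kcnmb1 and Kcnn2, higher in Dahl S, and Kcnj11, Kcnk2, Kcnk6 and Kcnn1, lower. For Kcnk6 this was a change of sign, from 0.13 with all arrays to -0.39 (limma adjusted p = 0.0305) for Dahl S minus SHR. For Kcnn1 that difference was -1.32 with all arrays and 0.71 under normexp. Those added against Dahl R were Kcnj5, Kcnk1, Kcnk2 and Kcnn1, higher in SHR, and Kcnd2 and Kcnj15, lower. With the percentile taken over spots without an outlier mark, which moved the median of all genes to -0.37 for Dahl S minus SHR and 0.40 for SHR minus Dahl R, 4 genes passed (all genes 3.78%) and 3 genes passed (all genes 3.14%), each of them higher in SHR. With normexp background correction 2 passed in each (all genes 3.57% and 2.69%), again all higher in SHR: Kcnab1 and Kcnq1 against Dahl S, and Kcnab1 and Kcnip2 against Dahl R. Slide as a block gave 5 against Dahl S (all genes 5.07%), 3 of them among the 17, and 16 against Dahl R (all genes 15.6%), 12 of them among the 14. Array weights, which gave SHR replicate 3 little weight, gave 26 and 19 (all genes 26.4% and 23.8%), and quantile normalization 15 and 15 (all genes 14.9% and 12.5%). When any 1 of the 9 arrays was left out, Kcnab1, Kcnd3, Kcnip2, Kcnj12, Kcnj4 and Kcnt1 passed in every fit in both comparisons, and Kcnmb4 in every fit against Dahl S.

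**Figure D2:**
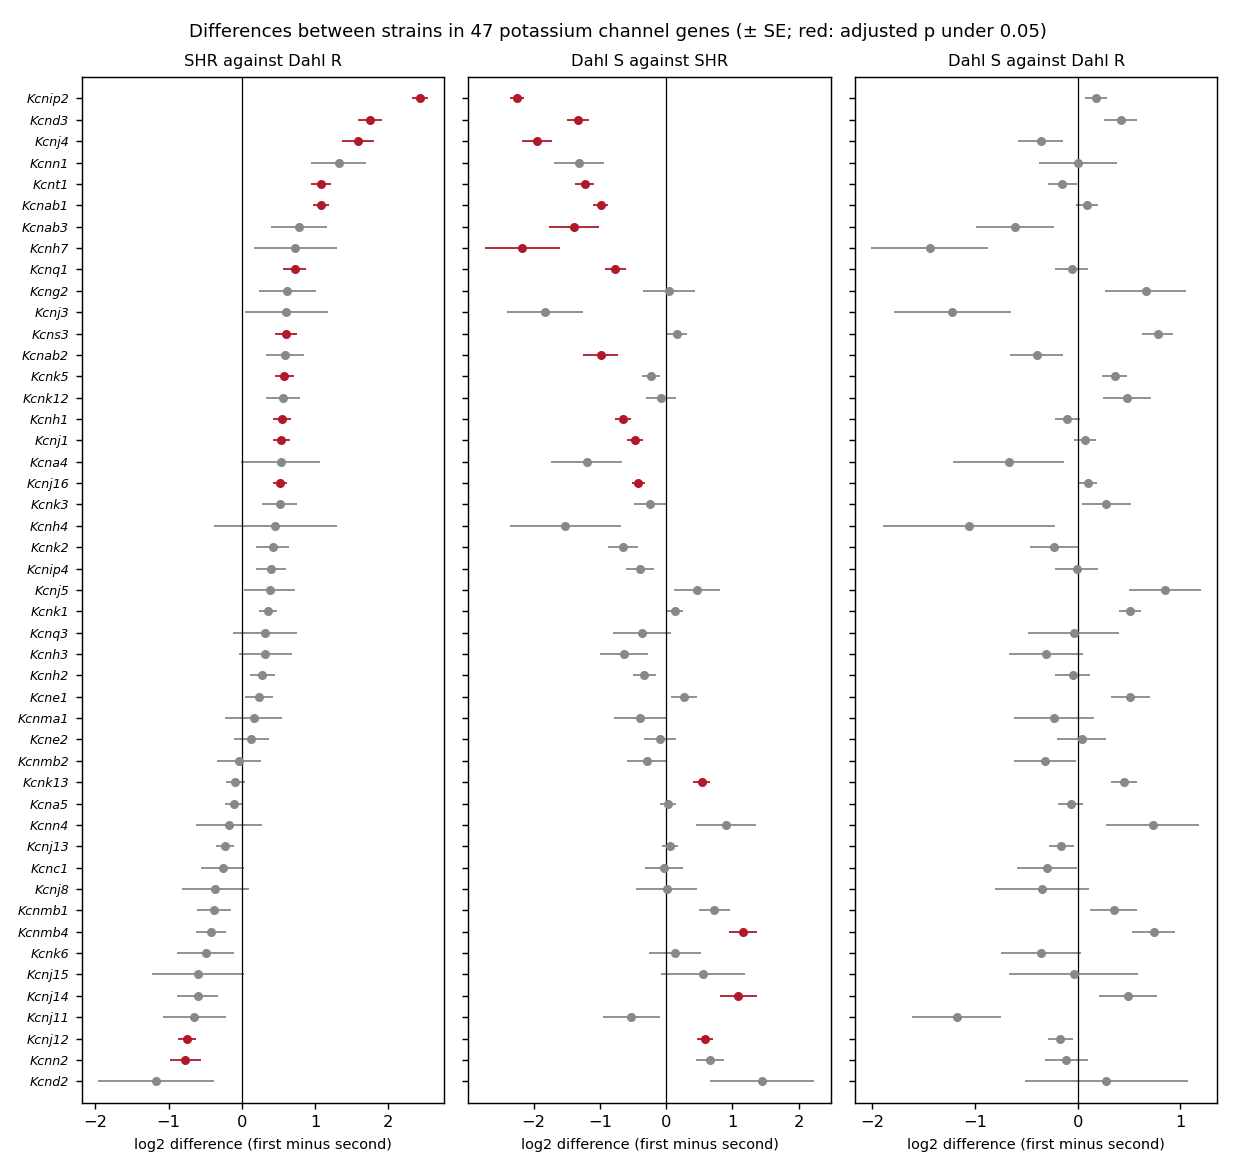
Log2 difference (x axis, first strain minus second) of 47 of the 49 tested potassium channel genes in 3 comparisons, with bars of 1 SE from the limma fit and genes with an adjusted p under 0.05 in red. Kcnip2 lies farthest to the right for SHR against Dahl R, at 2.43, and no gene is red for Dahl S against Dahl R.

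The Kv4 complex differed most. Kcnip2 and the pore gene Kcnd3 were higher in SHR than in both Dahl strains. The other pore gene, Kcnd2, was well above background in every Dahl animal and in no SHR animal. It did not pass with all arrays and the processing described below, and whether it passed depended on the setting. Kcnd2 entered the test through the Dahl arrays alone. Its Dahl levels also lay below the lowest signal called well above background on SHR replicate 3 (-2.99), so that array could not show it at those levels. The log2 level of Kcnip2 (NM_020094) was -3.21, -3.17 and -3.49 in Dahl S, -3.36, -3.51 and -3.54 in Dahl R, and -1.06, -1.07 and -1.0 in SHR, for replicates 1 to 3. The 3 SHR arrays lay close together, far above all 6 Dahl arrays, SHR replicate 3 included. SHR exceeded Dahl S 4.75-fold (Dahl S minus SHR -2.25 ± 0.11, SE, limma adjusted p = 2.3e-05) and Dahl R 5.38-fold (2.43 ± 0.11, adjusted p = 1.5e-05).

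The other 2 Kcnip2 probes, which stand for other RefSeq transcripts of the gene, gave the same picture. NM_020095 lay between -3.91 and -3.54 in Dahl S, between -3.83 and -3.52 in Dahl R and between -1.55 and -1.37 in SHR, 4.76-fold and 4.78-fold higher in SHR (adjusted p = 6.47e-05 and 6.33e-05 in limma). NM_001033961 lay between -3.72 and -3.56, between -3.55 and -3.35 and between -1.06 and -0.99 in the same order, 6.13-fold and 5.45-fold higher (adjusted p = 4.84e-06 and 6.27e-06). The 3 probes may bind the same transcripts, so they are not independent measurements. With slide as a block, SHR minus Dahl R, which is then the difference within slide 2, was 2.46 for NM_020094 (adjusted p = 0.000236 in limma). Dahl S minus SHR was -2.39 with that block (adjusted p = 0.00291). Under normexp the difference from Dahl S was -1.39 and no longer passed (adjusted p = 0.0868).

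Kcnd3 (NM_031739) followed the direction of its auxiliary subunit. Its log2 level was -3.50, -3.98 and -3.95 in Dahl S, -4.34, -4.11 and -4.24 in Dahl R and -2.71, -2.36 and -2.37 in SHR. Again all 3 SHR values lay above every Dahl value, although SHR replicate 3 was not well above background. The gene was 2.51-fold higher in SHR than in Dahl S (-1.33 ± 0.16, adjusted p = 0.00187 in limma) and 3.37-fold higher than in Dahl R (1.75 ± 0.16, adjusted p = 0.000582). Within slide 2 the excess over Dahl R was 1.64. The difference from Dahl S did not pass with slide as a block (-1.11, adjusted p = 0.122) or under normexp (-0.32).

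Kcnd2 (NM_031730) stood at -4.79, -5.35 and -5.24 in Dahl S and at -5.44, -5.29 and -5.49 in Dahl R, well above background on all 6 arrays. In SHR the values were -7.61, -7.70 and -4.42, with 0 of 3 arrays well above background. SHR replicates 1 and 2 lay below every Dahl array, and SHR replicate 3 lay above them. The lowest signal called well above background was -2.99 on SHR replicate 3 and -5.92 to -7.51 on the other 8 arrays. With all arrays and the processing described below, the difference did not pass (Dahl S minus SHR 1.45 ± 0.79, adjusted p = 0.253 in limma, and SHR minus Dahl R -1.17 ± 0.79, adjusted p = 0.38). The bounds were at least 1.62-fold and at least 1.34-fold higher in Dahl S and Dahl R, from the Dahl mean against a floor for each SHR array, its lowest signal called well above background or the Kcnd2 signal itself, whichever was higher. Without SHR replicate 3 the gene passed in both comparisons (2.53, adjusted p = 0.000136, and -2.25, adjusted p = 0.000244), with bounds of at least 4.31-fold and at least 3.56-fold. It also passed in limma with the authors' deposited values (1.73 and -1.45, adjusted p = 0.0197 and 0.0423). The same held with slide as a block (2.57 and -2.27, adjusted p = 0.0111 and 0.00189). Under normexp Kcnd2 passed in neither (1.68 and -0.34, adjusted p = 0.16 and 0.813).

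**Figure D3:**
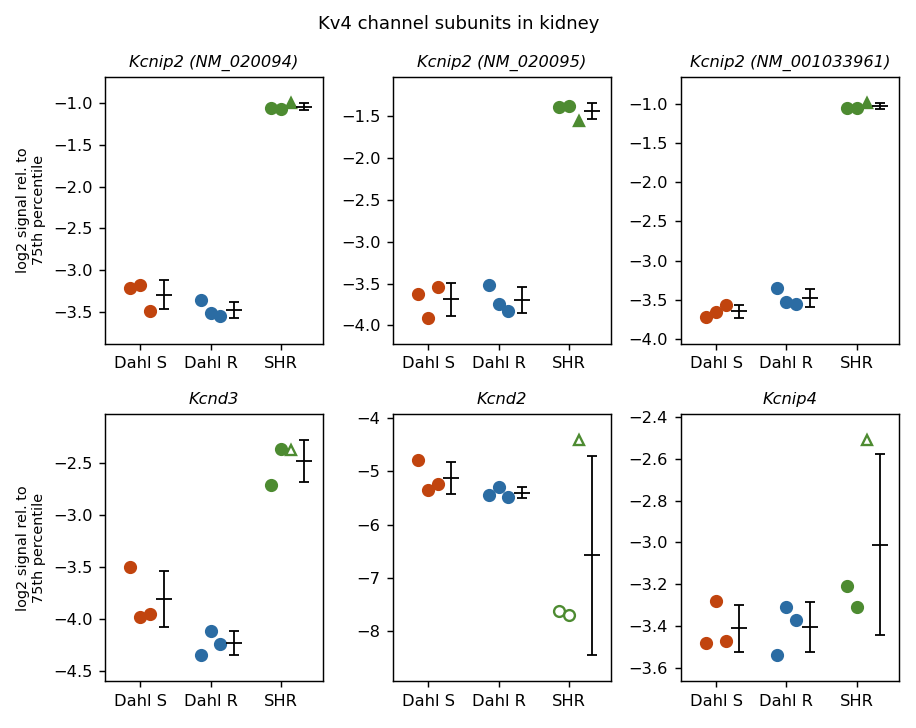
Log2 level (y axis, relative to the array's 75th percentile) of 3 Kcnip2 probes, Kcnd3, Kcnd2 and Kcnip4 in the 3 strains (x axis), 1 point per array with mean ± SD beside it. Triangles are SHR replicate 3 and open symbols are arrays not well above background; Kcnip2 and Kcnd3 sit higher in SHR, while Kcnd2 is open on all 3 SHR arrays.

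Kcnip4, another auxiliary subunit of the same family, lay between -3.48 and -3.28 in Dahl S, between -3.54 and -3.31 in Dahl R and between -3.31 and -2.51 in SHR, and did not pass (0.40 ± 0.21 for SHR minus Dahl R). Dpp6, a membrane protein that joins Kv4 channels and is not itself a Kcn gene, had mean log2 levels of -6.77 in Dahl S, -5.54 in Dahl R and -4.97 in SHR. It passed against Dahl S (adjusted p = 0.0218 in limma), higher in SHR, but with 1 of 3 Dahl S arrays and 2 of 3 SHR arrays well above background the size of the difference is not a measured one. It did not pass against Dahl R (0.57 ± 0.40). Kv4 channels are best known in heart and nerve. The neuron and chromaffin markers Syt1, Dbh and Chga were well above background on no array, and the summed linear level of the 5 measured markers of these cells was 0.154 to 0.284 in Dahl S, 0.0912 to 0.0996 in Dahl R and 0.0898 to 0.29 in SHR, in units of the array's 75th percentile. Smooth muscle markers (4 measured, 2 usable SHR arrays) summed to 32.5 to 37.8, 24.3 to 25 and 23.4 to 28.9 in the same order. Their sum was thus not higher in SHR than in Dahl S. The part of these cells in the Kv4 differences was not tested.

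Among the Kv beta subunits, which bind the inner face of Kv1 channels, Kcnab1 was higher in SHR. Its log2 level was 0.01, -0.05 and -0.17 in Dahl S, -0.22, -0.12 and -0.13 in Dahl R and 0.73, 1.05 and 0.98 in SHR. The SHR values stood apart from both Dahl groups, which overlapped each other. SHR was 1.99-fold above Dahl S (-0.99 ± 0.11, adjusted p = 0.00109 in limma) and 2.12-fold above Dahl R (1.08 ± 0.11, adjusted p = 0.000821). The within-slide value against Dahl R was 1.02, and with slide as a block the difference from Dahl S was -0.87 with an adjusted p of 0.0716.

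Kcnab2 and Kcnab3 passed against Dahl S alone, at a low signal. Kcnab2 was 1.99-fold higher in SHR (-0.99 ± 0.26, adjusted p = 0.0371 in limma; 2 of 3 SHR arrays well above background). Kcnab3 stood at -5.91, -5.84 and -4.45 in SHR, where replicate 3 was not well above background and was the highest, and 0 of 3 Dahl S arrays measured it above background. It passed with all arrays (-1.39 ± 0.38, adjusted p = 0.0443) and, with a smaller difference, without SHR replicate 3 (-0.91 ± 0.17, adjusted p = 0.00988), and no fold is given for it. Both differences changed sign under normexp, to 0.44 and 0.87. Of the Kv1 pores that these subunits join, Kcna4 and Kcna5 were tested and did not pass (SHR minus Dahl R 0.53 ± 0.54 and -0.11 ± 0.12).

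Kcnq1, the pore of the slow delayed rectifier, which is found in proximal tubule as well as heart, was higher in SHR. It stood at 0.85, 1.04 and 1.16 in Dahl S, at 1.02, 1.06 and 1.15 in Dahl R and at 1.79, 1.5 and 2.07 in SHR. Every SHR array exceeded every Dahl array, and the Dahl strains overlapped. The excess was 1.71-fold over Dahl S (-0.77 ± 0.16, adjusted p = 0.0153 in limma) and 1.64-fold over Dahl R (0.72 ± 0.16, adjusted p = 0.0237), and 0.55 in log2 within slide 2 (adjusted p = 0.0582 with slide as a block). Its auxiliary subunit Kcne1 stood at 1.17, 1.27 and 1.16 in Dahl S, 0.53, 0.55 and 1.00 in Dahl R and 0.98, 0.58 and 1.24 in SHR. Kcne1 did not pass, with overlapping Dahl R and SHR values (SHR minus Dahl R 0.24 ± 0.19, Dahl S minus Dahl R 0.51 ± 0.19, adjusted p = 0.451 and 0.392).

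Kcns3, an electrically silent subunit that joins other voltage-gated pores and modifies them, was lowest in Dahl R. It stood at 0.48, 0.24 and 0.11 in Dahl S, -0.44, -0.60 and -0.46 in Dahl R and -0.03, -0.01 and 0.37 in SHR. Dahl R lay below both other strains without overlap. SHR was 1.53-fold above Dahl R (0.61 ± 0.15, adjusted p = 0.0342 in limma; 0.51 within slide 2, adjusted p = 0.0595 with slide as a block), and Dahl S minus Dahl R was 0.78 ± 0.15 (adjusted p = 0.0531).

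Kcnh1, of the ether-a-go-go family, lay between -3.28 and -3.09 in Dahl S, between -3.20 and -3.04 in Dahl R and between -2.72 and -2.35 in SHR, the SHR values being highest. It was 1.57-fold higher in SHR than in Dahl S (-0.65 ± 0.12, adjusted p = 0.0111 in limma) and 1.46-fold higher than in Dahl R (0.55 ± 0.12, adjusted p = 0.0248), with 2 of 3 SHR arrays well above background. Kcnh7, of the related erg group, stood at -6.46, -5.41 and -4.05 in SHR, and 0 of 3 Dahl S arrays, 3 of 3 Dahl R arrays and 1 of 3 SHR arrays were well above background. SHR replicate 3, the highest value, was not among them. The gene passed against Dahl S with all arrays (-2.17 ± 0.57, adjusted p = 0.0391) and without SHR replicate 3 (-1.54 ± 0.40, adjusted p = 0.0302), and no fold is given for it. The Kcnh7 difference changed to 0.41 under normexp and to -0.61 with slide as a block.

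Kcnj1 and Kcnj16, both channels of the distal nephron, were higher in SHR than in each Dahl strain. Kcnj1, known as ROMK, lines the thick ascending limb and collecting duct on the urine side, and Kcnj16 forms basolateral channels with Kcnj10. The log2 level of Kcnj1 was 2.12, 2.34 and 2.41 in Dahl S, 2.24, 2.20 and 2.23 in Dahl R and 2.82 and 2.70 in SHR replicates 1 and 2. That of Kcnj16 was 2.74, 2.68 and 2.60, then 2.66, 2.57 and 2.50, then 3.06 and 3.12. For both genes the SHR pair lay above all Dahl arrays, and the spot on SHR replicate 3 was marked as an outlier and left out.

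Kcnj1 was 1.39-fold higher in SHR than in Dahl S (-0.47 ± 0.12, adjusted p = 0.0397 in limma) and 1.45-fold higher than in Dahl R (0.54 ± 0.12, adjusted p = 0.0301; 0.55 within slide 2). Kcnj16 was 1.34-fold higher than in Dahl S (-0.42 ± 0.10, adjusted p = 0.0372) and 1.43-fold higher than in Dahl R (0.52 ± 0.10, adjusted p = 0.0215; 0.56 within slide 2). With slide as a block both passed against Dahl R (adjusted p = 0.0309 and 0.0119) and neither passed against Dahl S (adjusted p = 0.203 and 0.0859). With the authors' deposited values Kcnj1 did not pass (-0.34, adjusted p = 0.102, and 0.41, adjusted p = 0.0692).

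Some markers of the collecting duct were also higher in SHR. Of 4 measured principal cell markers 2 passed, both higher in SHR than in Dahl R: the water channel Aqp2 by 0.64 ± 0.15 and the sodium channel chain Scnn1b by 1.49 ± 0.20 in log2 (limma adjusted p = 0.0356 and 0.00303). Of 4 intercalated cell markers 3 passed, Slc26a4 by 1.03, Foxi1 by 1.02 and Atp6v1b1 by 0.78. Between Dahl S and SHR the same 2 principal cell markers passed, higher in SHR (-0.59 and -1.62 for Dahl S minus SHR), but 1 of 4 intercalated markers, Slc26a4 (-0.87). Slc4a1, the other intercalated marker, which was also in the red cell list, was higher in Dahl S than in Dahl R (0.78). The red cell markers summed to 275 to 341 in Dahl S, 243 to 261 in Dahl R and 247 to 285 in SHR. The summed level of the principal cell markers was 108 to 141 in Dahl S, 108 to 139 in Dahl R and 152 to 177 in SHR. That of the intercalated markers was 30.4 to 34.1, 22.5 to 28.8 and 41 to 50.2. Both SHR ranges come from 2 arrays, where every marker had a usable spot. A higher sum in SHR was not particular to the collecting duct. Distal convoluted tubule markers summed to 83.7 to 110, 86.1 to 112 and 122 to 163 in the same order. Endothelial markers summed to 31.8 to 35, 31.8 to 33.7 and 42.6 to 58.2. Fat and podocyte sums were also highest in SHR (1 usable SHR array for podocytes), and the leukocyte sum was lowest there. Thick ascending limb markers, with 3 measured, summed to 273 to 304, 275 to 321 and 267 to 406, and Cldn16 among them fell in SHR (-1.29 ± 0.15 against Dahl R, adjusted p = 0.00168). The part of cell makeup in the Kcnj1 and Kcnj16 differences was not tested.

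**Figure D4:**
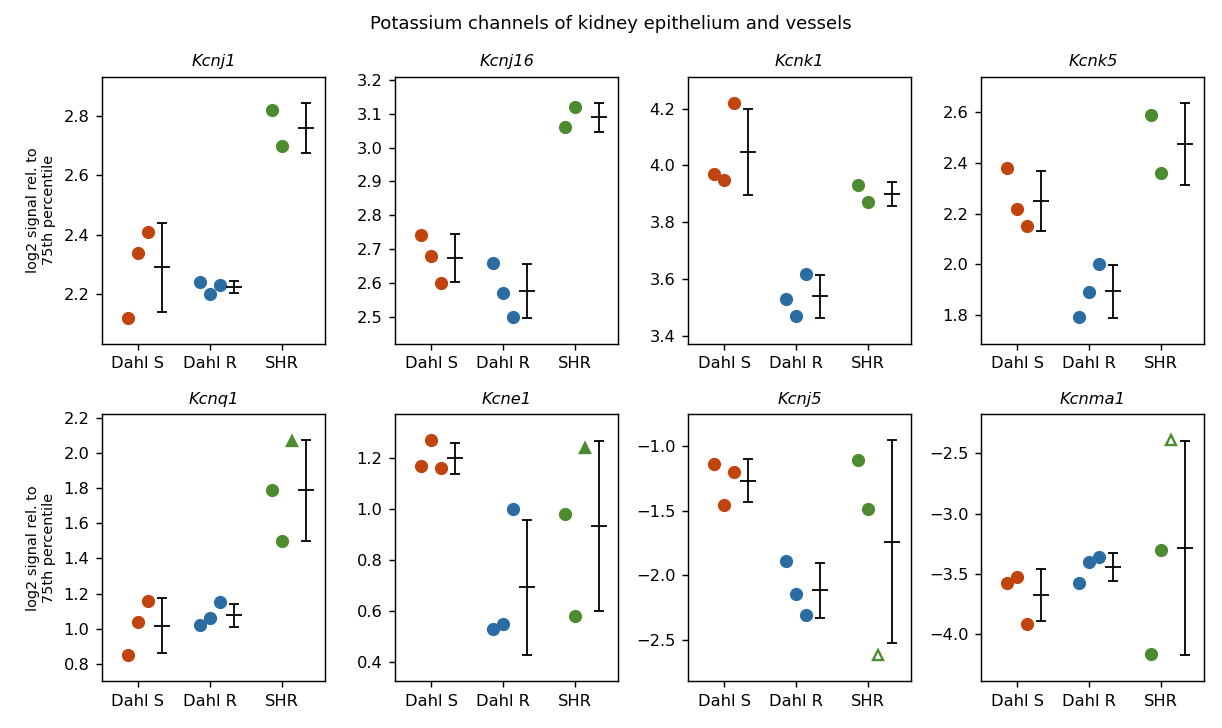
Log2 level (y axis, relative to the array's 75th percentile) of 8 channels of tubule epithelium, vessels and adrenal by strain (x axis), 1 point per array with mean ± SD beside it; triangles are SHR replicate 3 and open symbols are not well above background. Kcnj1, Kcnj16, Kcnk1 and Kcnk5 have 2 SHR points, and the SHR points of Kcnj1, Kcnj16 and Kcnq1 lie above all Dahl points.

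The strongly rectifying channels Kcnj4 and Kcnj12, which belong to a family that stabilises the resting potential of heart and brain cells, differed in opposite directions. Kcnj4 stood at -4.31, -4.84 and -3.99 in Dahl S, -3.93, -4.23 and -3.91 in Dahl R and -2.62, -2.33 and -2.33 in SHR, well above background on all 9 arrays. Its SHR values were higher than every Dahl value. SHR was 3.87-fold above Dahl S (-1.95 ± 0.22, adjusted p = 0.00116 in limma) and 3.02-fold above Dahl R (1.59 ± 0.22, adjusted p = 0.00337), with 1.59 within slide 2.

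Kcnj12 was the reverse, at 0.14, -0.13 and -0.17 in Dahl S, 0.03, 0.16 and 0.14 in Dahl R and -0.67, -0.75 and -0.50 in SHR. Here all SHR values were lower than all Dahl values. SHR was 1.5-fold below Dahl S (0.59 ± 0.12, adjusted p = 0.0151 in limma) and 1.68-fold below Dahl R (-0.75 ± 0.12, adjusted p = 0.00635), with -0.86 within slide 2. With slide as a block neither Kcnj4 nor Kcnj12 passed against Dahl S (-2.04, adjusted p = 0.0641, and 0.77, adjusted p = 0.0868), and both passed against Dahl R.

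Kcnj14, of the same family, fell from between -2.84 and -2.60 in Dahl S to between -4.38 and -3.16 in SHR, with Dahl R between -3.34 and -3.00. It was 2.12-fold higher in Dahl S than in SHR (1.09 ± 0.28, adjusted p = 0.0362 in limma; 2 of 3 SHR arrays well above background), and did not pass against Dahl R (-0.60 ± 0.28). Kcnj13, of transporting epithelia, lay between 0.10 and 0.19 in Dahl S, 0.14 and 0.44 in Dahl R and -0.09 and 0.24 in SHR, and did not pass. Kcnj15, known in proximal tubule, was well above background on 1 Dahl S, 3 Dahl R and 1 SHR array and did not pass with all arrays (SHR minus Dahl R -0.60 ± 0.63). Without SHR replicate 3 its differences were 1.30 for Dahl S minus SHR and -1.34 for SHR minus Dahl R (adjusted p = 0.0438 and 0.0441).

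Of the channels closed by ATP, Kcnj8, the vascular pore, stood at -2.98, -3.36 and -3.07 in Dahl S, -2.77, -2.79 and -2.81 in Dahl R and -2.86, -2.26 and -4.33 in SHR. The SHR values spanned both Dahl strains, and the gene did not pass in any of the 3 comparisons. Their sulfonylurea partners Abcc8 and Abcc9 did not pass either (SHR minus Dahl R -0.47 ± 0.29 and -0.32 ± 0.16). Kcnj5, a channel opened by G proteins that is known from heart atrium and the aldosterone-making adrenal zone, stood at -1.14, -1.46 and -1.20, then -1.89, -2.15 and -2.31, then -1.11, -1.49 and -2.62. SHR replicates 1 and 2 matched Dahl S, and SHR replicate 3, not well above background, lay below Dahl R. Without that array SHR exceeded Dahl R by 0.82 ± 0.17 (adjusted p = 0.0167 in limma), and by 0.93 with slide as a block (adjusted p = 0.0197). The adrenal marker Cyp11b2 was well above background on no array, and the 4 measured adrenal markers summed to 0.111 to 0.131 in Dahl S, 0.0795 to 0.127 in Dahl R and 0.0606 to 0.326 in SHR.

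Of 7 tested 2-pore domain channels, which carry background potassium current, 1 passed in each SHR comparison, Kcnk5 against Dahl R and Kcnk13 against Dahl S. Kcnk5, an alkali-activated channel of proximal tubule, stood at 2.38, 2.22 and 2.15 in Dahl S, 1.79, 1.89 and 2.00 in Dahl R and 2.59 and 2.36 in SHR replicates 1 and 2. Dahl R was lowest without overlap, and the SHR and Dahl S values overlapped. SHR was 1.5-fold above Dahl R (0.58 ± 0.13, adjusted p = 0.0329 in limma; 0.53 within slide 2), and Dahl S minus SHR was -0.23 ± 0.13. Kcnk1 stood at 3.97, 3.95 and 4.22 in Dahl S, 3.53, 3.47 and 3.62 in Dahl R and 3.93 and 3.87 in SHR. It showed the same low Dahl R values but did not pass (SHR minus Dahl R 0.36 ± 0.12, adjusted p = 0.107). For both genes the spot on SHR replicate 3 was left out as an outlier.

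Kcnk13 lay between -1.82 and -1.69 in Dahl S, -2.40 and -1.97 in Dahl R and -2.39 and -2.16 in SHR. Dahl S was the higher strain without overlap, 1.46-fold over SHR (0.54 ± 0.13, adjusted p = 0.0289 in limma; 2 of 3 SHR arrays well above background). This was 0.25 with slide as a block and did not pass. Kcnk3, an acid-sensitive channel of adrenal and vessel muscle, lay between -2.26 and -1.87 in Dahl S, -2.36 and -2.24 in Dahl R and -2.33 and -1.36 in SHR, overlapping, and did not pass. The mechanically gated Kcnk2 did not pass with all arrays (SHR minus Dahl R 0.42 ± 0.23). Without SHR replicate 3 it was 0.70 ± 0.13 higher in SHR than in Dahl R (adjusted p = 0.0105), with Dahl S minus SHR at -0.92 (adjusted p = 0.00308).

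Among ion-activated channels the sodium-activated Kcnt1 was higher in SHR. It stood at -2.70, -2.41 and -2.28 in Dahl S, -2.24, -2.39 and -2.29 in Dahl R and -1.30, -1.36 and -1.02 in SHR, on all 9 arrays well above background. The SHR values lay above both Dahl groups, which overlapped. SHR was 2.35-fold above Dahl S (-1.23 ± 0.14, adjusted p = 0.00126 in limma) and 2.11-fold above Dahl R (1.08 ± 0.14, adjusted p = 0.00269). These differences were -1.23 and 1.01 with slide as a block (adjusted p = 0.0393 and 0.00977).

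The large-conductance channel, which secretes potassium when tubule flow rises and relaxes vessel muscle, differed in a beta subunit and not detectably in its pore. Kcnma1, the pore, stood at -3.58, -3.53 and -3.92 in Dahl S, -3.58, -3.40 and -3.36 in Dahl R and -4.17, -3.30 and -2.39 in SHR. The SHR values ran from below to above all Dahl values, and the gene did not pass (SHR minus Dahl R 0.16 ± 0.39, adjusted p = 0.816 in limma). Kcnmb4, a beta subunit of nerve and distal nephron, stood at -2.75, -2.80 and -2.62, then -3.65, -3.39 and -3.36, then -3.48, -3.81 and -4.36. Dahl S was highest without overlap, 2.24-fold over SHR (1.16 ± 0.21, adjusted p = 0.0103), with SHR replicate 3 not well above background. Without that array the difference was 0.93 (adjusted p = 0.00353), and with slide as a block 1.20 (adjusted p = 0.0315). It did not pass in limma with the authors' deposited values (1.49, adjusted p = 0.0823) or under normexp (0.93, adjusted p = 0.28).

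Kcnmb1, the beta subunit of vessel muscle, stood at -3.21, -3.28 and -3.29 in Dahl S, -3.58, -3.65 and -3.59 in Dahl R and -3.67, -3.69 and -4.60 in SHR. Dahl S was again the highest without overlap, but Dahl S minus SHR, at 0.73 ± 0.23, did not pass (adjusted p = 0.0755 in limma). The summed smooth muscle markers were also highest in Dahl S, with the sums given above. Of the 4 tested, Cnn1 exceeded its SHR level by 0.40 ± 0.09 in log2 (adjusted p = 0.0239 in limma) and 3 did not pass. Between Dahl S and Dahl R 0 of the 4 passed. Their part in the Kcnmb1 values was not tested. Kcnn2, a small-conductance calcium-activated channel, lay between -3.57 and -3.48 in Dahl S, -3.43 and -3.38 in Dahl R and -4.67 and -3.76 in SHR, the lowest. It was 1.71-fold lower in SHR than in Dahl R (-0.77 ± 0.21, adjusted p = 0.0483; 2 of 3 SHR arrays well above background), with -0.53 within slide 2.

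Between the salt-sensitive and the salt-resistant Dahl strain, both on low salt, no potassium channel gene passed. The limma count was 0 of 49 at an adjusted p under 0.05, against 1.65% of all genes (0.865% higher and 0.783% lower in Dahl S). The median log2 difference of Dahl S minus Dahl R was -0.04 over the 49 genes and 0.03 over all genes, and 0.71 and 0.06 under normexp. The values of the 2 strains did not overlap in 21 of 49 genes (42.9%, against 32.3% of all genes). Although no SHR array is in this contrast, all 9 arrays share 1 estimate of spread, and without SHR replicate 3 there were 7 passing genes (14.3%, against 5.05%), 6 higher and 1 lower in Dahl S (2.86% and 2.2% of all genes). With array weights 14 passed (8 higher, 6 lower; all genes 13.3%), with quantile normalization 1 (all genes 1.64%), and with slide as a block 0 (all genes 1.11%). Normexp gave 0 (all genes 0.285%) and so did the percentile over unmarked spots (all genes 0.249%).

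The 1 gene that was lower in Dahl S was Kcnj11, the ATP-sensitive pore known from the pancreatic beta cell. It stood at -2.60, -3.11 and -2.87 in Dahl S and at -1.76, -1.58 and -1.70 in Dahl R, with SHR at -1.79, -1.74 and -3.47. All Dahl S arrays were lower than all Dahl R arrays, by -1.18 ± 0.43 with all arrays (adjusted p = 0.367 in limma) and -1.18 ± 0.13 without SHR replicate 3 (adjusted p = 0.00476). Its partner Abcc8 had mean log2 levels of -4.48 in Dahl S and -3.28 in Dahl R and did not pass (-1.20 ± 0.29, adjusted p = 0.133).

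The 6 genes that were higher in Dahl S without that array were Kcnj5, Kcns3, Kcnmb4, Kcnk1, Kcnk12 and Kcnmb1, whose values are given above except for Kcnk12. Kcnk12 stood at -4.28, -4.24 and -4.45 in Dahl S and at -4.64, -4.87 and -4.88 in Dahl R. In each of the 6 the Dahl S and Dahl R values did not overlap, which adds no support, since the genes were picked on these same arrays. The differences of Dahl S minus Dahl R without that array were 0.85 for Kcnj5, 0.78 for Kcns3, 0.74 for Kcnmb4, 0.51 for Kcnk1, 0.48 for Kcnk12 and 0.35 for Kcnmb1 (adjusted p from 0.0104 to 0.0397). Within slide 1, where Dahl R has a single array, they were 0.62, 0.72, 0.92, 0.51, 0.32 and 0.32, and -1.10 for Kcnj11. With slide as a block the adjusted p of the 7 genes ran from 0.0744 for Kcnmb4 to 0.378 for Kcnk12.

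**Figure D5:**
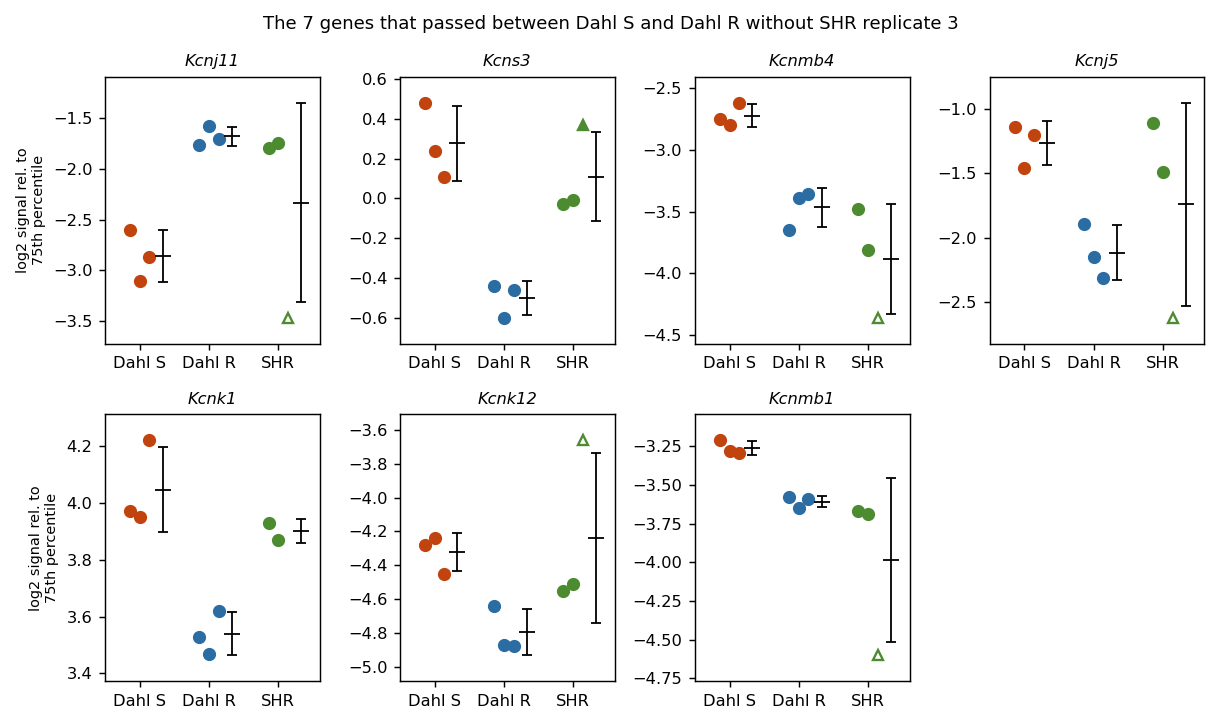
Log2 level (y axis, relative to the array's 75th percentile) by strain (x axis) of the 7 genes with an adjusted p under 0.05 between Dahl S and Dahl R once SHR replicate 3 (triangle) was left out, 1 point per array with mean ± SD beside it; open symbols are not well above background. In all 7 panels the Dahl S and Dahl R points, on which the genes were picked, do not overlap, with Kcnj11 lower and the other 6 higher in Dahl S.

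Kcnj5 and Kcnj1 are neighbouring genes in the GRCr8 reference, and they are the 1 pair, of 11 neighbouring Kcn pairs, in which both were tested. Their patterns differed: Kcnj1 was higher in SHR than in both Dahl strains, with Dahl S minus Dahl R at 0.07 ± 0.11, while Kcnj5 had its lowest group mean, -2.12, in Dahl R.

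Other genes of renal potassium handling were read from lists of pumps, cotransporters, regulators and channel partners. Between Dahl S and Dahl R 0 genes passed in each of these lists. Of 13 tested sodium pump subunits and FXYD regulators, 2 were higher and 2 lower in Dahl S than in SHR. Among them were Atp1a4 (1.08 ± 0.19, adjusted p = 0.00961 in limma) and Atp1b3 (-0.40 ± 0.10, adjusted p = 0.0389). Against Dahl R, SHR had 1 higher and 2 lower in that list, Atp1b3 (0.39), Atp1a4 (-1.01) and Fxyd6 (-0.45).

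Sgk1, an aldosterone-induced kinase that raises channel number at the membrane, was 2.11-fold higher in Dahl S than in SHR (1.08 ± 0.15, adjusted p = 0.00545 in limma). Its mean log2 levels were 4.78, 4.01 and 3.70 in Dahl S, Dahl R and SHR (2 usable SHR arrays). Nr3c2, the mineralocorticoid receptor, was lower in Dahl S than in SHR (-0.38 ± 0.09, adjusted p = 0.0325) and higher in SHR than in Dahl R (0.43, adjusted p = 0.0256). The other 9 of 11 genes of that list, among them the kinases Wnk1 and Wnk4, did not pass between Dahl S and SHR. Atp12a, the proton-potassium pump of the collecting duct, was 2.61-fold higher in Dahl S than in SHR (1.38 ± 0.37, adjusted p = 0.0417). Of 5 tested cation-chloride cotransporters, Slc12a8 passed against both Dahl strains, lower in SHR (Dahl S minus SHR 0.56 ± 0.16 and SHR minus Dahl R -0.61 ± 0.16, adjusted p = 0.047 and 0.0401 in limma). The thiazide-sensitive Slc12a3 did not pass (Dahl S minus SHR -0.30 ± 0.25).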

How the data were processed

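Kidney RNA from 9 rats was measured on Agilent arrays, 1 per rat, from 1 μg of total RNA each. Per the file headers, the deposited processed signal, median signal and median local background are intensities from Agilent Feature Extraction 10.5.1.1, background-subtracted only in the processed signal, and not normalized between arrays. The authors' deposited value table was read as log2, since its columns followed the scanner values (r of 0.970 for SHR replicate 3, 0.999 to 1.00 for the others); its column medians were 9.63 to 9.64, its normalization is unknown, and it served as an alternative.

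The log2 processed signal minus each array's log2 75th percentile over 42136 non-control spots was used. Outlier-marked spots were set to missing and a probe's spots averaged. Of the probes, 16592 (10861 genes) passed the filter on dim signal, and the brightest tested probe stood for a gene. Strains were compared with limma 3.58.1 in R 4.3.3, strain only, over all 9 arrays, with two-sided Benjamini-Hochberg adjusted p under 0.05; the code was tested on simulated data. Symbols came from RefSeq identifiers and current RefSeq tables (GRCr8). Probe sequences, and whether a strain's own variants lie under a probe, were not analysed here. The labels do not name litters or preparation days, so p-values measure the spread between these samples.

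The members and gene lists were chosen with earlier results of these data known. Named are every potassium channel gene past the threshold, 16 fixed kidney, vessel and adrenal channels, and the passing genes of the related lists, at most 5 a comparison by size of difference; Kcnip4, Kcna4, Kcna5, Kcnd2, Kcnk2, Kcnk12, Kcnj11, Kcnk6, Kcnn1 and the non-passing genes of the related lists were named after their values were seen. Some genes that these rules would name are not reported here; counts include them.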

Additional observations from a re-analysis of the deposited data

How the results depend on the processing

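With all arrays and the processing described, 0 potassium channel genes passed between the Dahl strains, 17 between Dahl S and SHR and 14 between SHR and Dahl R; counts below keep that order. Leaving out 1 array gave 0 to 7, 8 to 26 and 6 to 20 (all genes 0.479% to 5.05%, 7.54% to 25.7% and 5.87% to 22.8%). The first reached 7 without SHR replicate 3 and stayed at 0 otherwise. Without Dahl S replicate 1, 2 or 3 the second came to 9, 8 and 9, without Dahl R replicate 2 or 3 to 10 and 11, and without SHR replicate 3 to 26. The third was 9 without Dahl S replicate 2 (all genes 9.35%). It was 6, 6 and 7 without Dahl R replicates 1, 2 and 3 (all genes 6.34%, 5.87% and 7.14%). Normexp gave 0, 2 and 2 and the percentile over unmarked spots 0, 4 and 3, with the all-gene shares given above. No filter on dim probes gave 0, 9 and 7 (all genes 0.617%, 8.65% and 7.03%). A filter on all 9 arrays gave 2, 9 and 11 of 19 genes (all genes 2.8%, 20.1% and 19.6%). Quantile normalization gave 1, 15 and 15, slide as a fixed block 0, 5 and 16, and array weights 14, 26 and 19. Their all-gene shares are given above. Slide as a random block gave 1, 7 and 15 (all genes 1.78%, 7.6% and 17.7%). The labels do not say whether replicate numbers pair animals across strains. Deviations of same-numbered arrays from their strain means correlated at -0.16 to 0.07, which with 3 arrays per strain cannot settle it. With the replicate block 0, 10 and 8 genes passed (all genes 0.497%, 10.9% and 8.64%). Keeping outlier spots, averaging a gene's probes and the authors' values left each count within 1.5 times. For all these the cause was not tested.

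Differences whose sign changed were small or dim, and none but Kcnab2, Kcnab3 and Kcnh7 had passed. The sign changes given here and below do not cover every tested gene. Among further ones, Dahl S minus SHR became 0.71 for Kcnn1, 0.65 for Kcnj3 and 0.26 for Kcna4 under normexp. Under normexp, Dahl S minus SHR became 0.44 for Kcnab2, 0.87 for Kcnab3, 0.41 for Kcnh7, -0.05 for Kcnk1, 0.05 for Kcnk3 and 0.17 for Kcnma1, Dahl S minus Dahl R 1.22 for Kcnj15, 0.44 for Kcnj8 and 0.54 for Kcnma1, and SHR minus Dahl R 0.31 for Kcnj15, 0.15 for Kcnj8, 0.18 for Kcnmb1 and 0.18 for Kcnmb4. With the percentile over unmarked spots, Dahl S minus SHR became -0.10 for Kcne1, -0.30 for Kcnj13 and -0.35 for Kcnj8, and SHR minus Dahl R 0.13 for Kcnj13. With slide as a fixed block, Dahl S minus Dahl R became 0.02 for Kcnj13 and 0.08 for Kcnj15, Dahl S minus SHR -0.31 for Kcnj5, -0.61 for Kcnj8 and 0.25 for Kcnma1, and SHR minus Dahl R 0.24 for Kcnj8 and -0.35 for Kcnma1. As a random block, Kcnj8 became -0.20 (Dahl S minus SHR) and Kcnma1 -0.13 (SHR minus Dahl R). With array weights, Kcnj15 became 0.01 (Dahl S minus Dahl R), Kcnj8 -0.67 and 0.23 and Kcnma1 -0.23 (SHR minus Dahl R); Kcnj15 was also 0.01 with the authors' values and 0.02 with quantile normalization.

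Leaving out 1 array also changed signs, with these ranges among others. Dahl S minus Dahl R ran from -0.15 to 0.07 for Kcnj15 and -0.13 to 0.03 for Kcnq1. Dahl S minus SHR ran from -0.03 to 0.14 for Kcnj13, -0.17 to 1.30 for Kcnj15, -0.58 to 0.46 for Kcnj8 and -0.84 to 0.06 for Kcnma1. SHR minus Dahl R ran from -1.34 to 0.13 for Kcnj15, -0.81 to 0.23 for Kcnj8 and -0.29 to 0.61 for Kcnma1. Without SHR replicate 3, Dahl S minus SHR turned from 0.13 to -0.39 for Kcnk6. SHR minus Dahl R then turned from 0.53 to -0.13 for Kcna4.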
